A study of Homo sapiens with 7 samples.

Results

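The KLHL family consists of adaptor proteins of cullin-3 ubiquitin ligases, and the account below covers its genes together with CUL3, the scaffold of those ligases, on 7 expression arrays. A gene was a member if its symbol is KLHL followed by a number, or CUL3, and if at least 1 probe set was annotated to that symbol alone. This gave 35 members, 34 KLHL genes and CUL3, with 87 probe sets, of 19775 genes and 54613 probe sets in all. Where a gene had several probe sets, the brightest by its mean over all arrays stands for it, and the other probe sets are given where they bear on a result. RefSeq lists 37 KLHL genes, and the 3 that are no members here, KLHL30, KLHL33 and KLHL38, had no probe set annotated to them alone. KLHL23 had 3 further probe sets that name several genes and were not used.

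A KLHL protein has a BTB domain and a BACK domain, with which it binds CUL3, and a Kelch propeller, with which it binds a substrate. CUL3 in turn carries the RING protein RBX1, which brings the ubiquitin-charged enzyme, and the small modifier NEDD8 switches the complex on. The Kelch adaptor thereby decides which protein is marked, and single adaptors are known for control of mitosis, of the cytoskeleton, of salt transport in the kidney and of muscle fibres.

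The arrays were Affymetrix HG-U133 Plus 2.0 arrays of total RNA from Panc1 cells, an established line of human pancreatic cancer, and the study looked for genes that respond to S100P, a small calcium-binding protein. All cells were stable clones grown from single transfected cells, so each clone descends from 1 cell. The S100P-labelled arm had received the pcDNA3.1/V5-His vector with S100P and held 4 arrays, 2 of clone 1 (1a, 1b) and 2 of clone 5 (5a, 5b). The vector arm had received pcDNA3.1/V5-His alone and held 3 arrays, 2 of clone V3 (V3a, V3b) and 1 of clone V1. All groups therefore carried the plasmid. In the description labels V1 alone begins with SB rather than PANC1, and whatever that marks cannot be told apart from the clone.

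Values are log2 expression values made by the authors with RMA, so a difference of 1 is 1 doubling, and the array medians lay between 4.51 and 4.58. The S100P probe set read 5.80 and 5.95 in clone 1, 5.36 and 5.45 in clone 5, 5.65 and 6.01 in V3, with 4.65 in V1, with a difference of 0.27 between arms (SE 0.32, limma adjusted p = 0.846). Whether it reads the transgene is not known, so the labels are not settled by it, and directions follow the labelled arms. Of 7 epithelial markers none passed between arms in limma (4 had an unadjusted p under 0.05), and their mean level was 9.40 to 9.86 on the S100P-labelled arrays and 9.39 to 10.08 on the vector arrays. The adhesion gene CDH1 had the largest difference (2.23, SE 0.57, limma adjusted p = 0.133), with 7.79 and 7.66 in clone 1, 7.36 and 7.37 in clone 5, 6.17 and 6.36 in V3, with 3.83 in V1, and the keratin KRT8 the next (-0.95, SE 0.36, limma adjusted p = 0.346). The means of the leukocyte, endothelial, fibroblast and muscle marker lists lay between 3.59 and 4.49 on every array, and no marker of these was called between arms at its probe set of highest mean. The 2 of largest difference in each list were CD3E (0.12) and PTPRC (0.05) for leukocytes, VWF (-0.16) and CDH5 (0.13) for endothelium, COL1A1 (0.32) and LUM (0.14) for fibroblasts, and CKM (-0.19) and MYH1 (-0.14) for muscle. Another probe set of COL1A1, a fibroblast collagen, read 10.55 and 10.46 in clone 1, 7.41 and 7.46 in clone 5, 4.84 and 4.84 in V3, with 2.97 in V1 (difference 4.87, limma adjusted p = 0.049). Further COL1A1 probe sets gave 3.68, 1.05 and 0.10, none called. The COL1A1 probe set of highest mean is of a type that can read unrelated transcripts. The part of COL1A1 in the members' results was not tested.

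Most of the family was measured above the middle of the array. Of the 35 members 26 lay above the array median on all 7 arrays and 7 on none. The same held for 12121 and 6323 of all 19775 genes. The 2 arrays of a clone differed by a median of 0.12 over the members, and by at most 0.50, at KLHL23. At a limma adjusted p of 0.05, 3 of the 35 members rose in the S100P-labelled arm, KLHL13, KLHL29 and KLHL42, and 0 fell. An unadjusted limma p under 0.05 was found at 7 higher and 3 lower members. No share of all genes is given at that unadjusted threshold. In such bulk samples fewer cells that express a gene and less RNA per cell cannot be told apart. Over all 19775 genes 1.55% passed at the adjusted p of 0.05 in either direction, 1.03% higher and 0.526% lower. The median difference over the members was 0.15, and 21 of 35 (60%) were above 0, against a median of -0.00 and 50% above 0 over all genes. Over the 12121 genes above the array median on all arrays, 54.7% were above 0, with a median of 0.02. In the alternative settings the median over the members lay between 0.02 (without clone V3) and 0.22 (27 members, dim probe sets left out). On 7 members (KLHL3, KLHL9, KLHL13, KLHL20, KLHL22, KLHL29 and KLHL42) every S100P-labelled array lay above every vector array, a pattern held by 8.67% of all genes. On 3 (KLHL14, KLHL35 and CUL3) every S100P-labelled array lay below, against 5.51% of all genes. Of 26 members with several probe sets, 9 had at least 1 other probe set whose difference had the opposite sign, and at 1 of these 9, KLHL5, 2 such probe sets had an unadjusted p under 0.05.

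**Figure D1:**
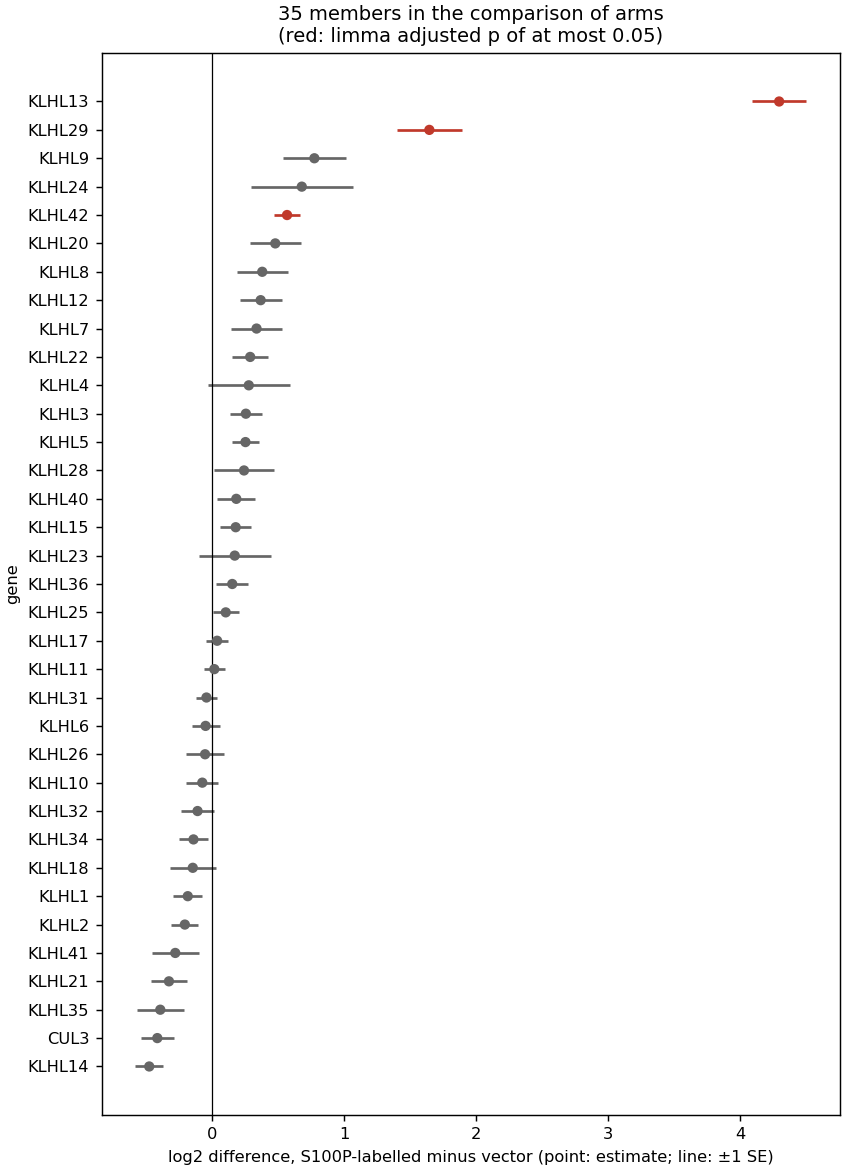
Log2 difference, S100P-labelled minus vector, of the 35 members (point: limma estimate, line: 1 SE to each side, over 4 against 3 arrays), ordered by size; red points have an adjusted p of at most 0.05. KLHL13 stands at 4.30 and KLHL29 at 1.65, while every other member lies between -0.48 and 0.78.

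The promoters of the 3 members that rose are shown because these genes were higher together in the S100P-labelled arm. They come from RefSeq on GRCh38.p14, which held promoters for 32 of the 35 members, and run over the 250 bases before the start, 5′ to 3′ on the gene's own strand. Capitals mark matches, on either strand, to TATAAA (core promoter motif), CCAAT (bound by NF-Y), GGGCGG (the GC box of SP1), CACGTG (an E-box) and TGANTCA (the AP-1 site), and neighbouring matches can overlap or touch. KLHL13 has 2 annotated starts, 131.5 kb apart on the X chromosome.

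KLHL13 promoter 1, chrX:118116811-118117060, minus strand: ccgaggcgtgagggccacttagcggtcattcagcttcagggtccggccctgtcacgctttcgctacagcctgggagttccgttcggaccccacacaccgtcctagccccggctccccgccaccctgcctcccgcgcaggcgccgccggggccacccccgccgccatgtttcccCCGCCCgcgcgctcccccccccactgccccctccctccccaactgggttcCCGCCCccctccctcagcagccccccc

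KLHL13 promoter 2, chrX:117985330-117985579, minus strand: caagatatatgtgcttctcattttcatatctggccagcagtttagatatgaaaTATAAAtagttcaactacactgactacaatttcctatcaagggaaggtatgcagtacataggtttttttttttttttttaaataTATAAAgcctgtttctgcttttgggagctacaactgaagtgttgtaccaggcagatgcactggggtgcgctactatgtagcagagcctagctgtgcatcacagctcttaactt

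KLHL29 promoter, chr2:23384929-23385178, plus strand: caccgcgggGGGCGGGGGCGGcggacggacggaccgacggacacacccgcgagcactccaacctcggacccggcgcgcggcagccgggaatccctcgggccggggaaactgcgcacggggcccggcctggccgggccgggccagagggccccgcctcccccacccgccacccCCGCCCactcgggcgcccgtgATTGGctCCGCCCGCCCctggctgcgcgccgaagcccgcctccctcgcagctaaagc

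KLHL42 promoter, chr12:27779983-27780232, plus strand: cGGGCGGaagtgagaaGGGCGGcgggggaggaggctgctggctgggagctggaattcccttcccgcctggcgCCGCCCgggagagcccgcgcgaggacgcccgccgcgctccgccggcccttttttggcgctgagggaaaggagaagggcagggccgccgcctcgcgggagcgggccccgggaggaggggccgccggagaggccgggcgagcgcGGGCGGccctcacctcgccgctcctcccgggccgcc

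The promoters of KLHL13 differ in base composition. Promoter 1 is 74.8% G and C, holds 23 CG dinucleotides, 0.769 of the number its bases would give by chance order, and has 2 GC boxes. Promoter 2 is 37.6% G and C, holds 1 CG (0.113 of that number) and has 2 TATAAA matches, 197 to 192 and 113 to 108 bases before the start. The KLHL29 promoter is 80.4% G and C with 37 CG, 5 GC boxes and 1 CCAAT box, read on the minus strand as ATTGG. The KLHL42 promoter is 79.2% G and C with 35 CG and 4 GC boxes.

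The motifs were counted in all promoters too. A GC box stands in 46.5% of the 43 promoters listed for members and in 42.6% of all 35116 promoters of that length. TATAAA stands in 6 of the 43 and in 10.7% of all, and the shares are for CCAAT 20.9% and 32.0%, for CACGTG 4.7% and 6.3%, and for TGANTCA 9.3% and 6.6%. The median G and C content is 60.8% for members and 58.0% for all. A match is a run of letters and no measured site, and the arrays do not tell which start was used.

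Among 5 members known for mitosis 1 rose, KLHL13. KLHL13 and its close relative KLHL9 act together with CUL3 on Aurora B, the kinase of the chromosomal passenger complex, and take it off mitotic chromosomes. KLHL13 read 8.70 and 8.58 in clone 1, 8.83 and 8.49 in clone 5, 4.45 and 4.78 in V3, with 3.96 in V1. All 4 S100P-labelled arrays were high and close to each other, and all 3 vector arrays were low, near the array medians, with a wide gap between arms. The means were 8.65 ± 0.14 (SD, n = 4) against 4.39 ± 0.41 (SD, n = 3). KLHL13 rose 19.6-fold (log2 difference 4.30, SE 0.20, limma adjusted p = 6.94e-05), and neither clone contrast called it. With dim probe sets left out, KLHL13 passed as lower in V1, which is 1 array, than in V3. The difference lay between 4.04 (without V1) and 4.70 (without V3) when 1 clone was left out, and passed without clone 1, 5 or V1. Without V3 the vector arm is the 1 array V1, so only the size is given there. Each fit without a clone leaves 1 clone in an arm, so that clone and its arm cannot be told apart. With the arrays of each clone averaged, 2 means against 2, the KLHL13 difference was 4.37 and did not pass (limma adjusted p = 0.098). KLHL13 rests on 1 probe set, and a difference against dim values can be compressed by RMA.

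KLHL9 did not pass between arms. Its values were 8.77 and 8.57 in clone 1, 8.43 and 8.29 in clone 5, 8.08 and 8.10 in V3, with 7.19 in V1. Every S100P-labelled array lay above every vector array, but the V1 array stood well below V3, and V3 lay close to clone 5. The difference was 0.78 (SE 0.24, limma adjusted p = 0.224), and it was 0.42 without V1 (adjusted p = 0.193) and 1.32 without V3. Leaving out V1 or V3 leaves 1 vector clone, and V1 is 1 array. The other 3 KLHL9 probe sets gave 0.48, 0.19 and 0.02, none called. The KLHL9 probe set of highest mean is of a type that can also read transcripts of related genes.

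The other mitotic members had smaller differences. KLHL21, an adaptor that acts on Aurora B at the spindle midzone, read 7.06 and 7.06 in clone 1, 6.84 and 6.82 in clone 5, 7.03 and 7.26 in V3, with 7.47 in V1 (difference -0.33, SE 0.13, limma adjusted p = 0.384). Its arms overlapped, since array V3a lay below both clone 1 arrays. KLHL22, an adaptor for the mitotic kinase PLK1 and for the mTORC1 regulator DEPDC5, gave 0.29 (adjusted p = 0.472). KLHL18, which acts on Aurora A at the entry into mitosis, gave -0.15 (adjusted p = 0.85).

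**Figure D2:**
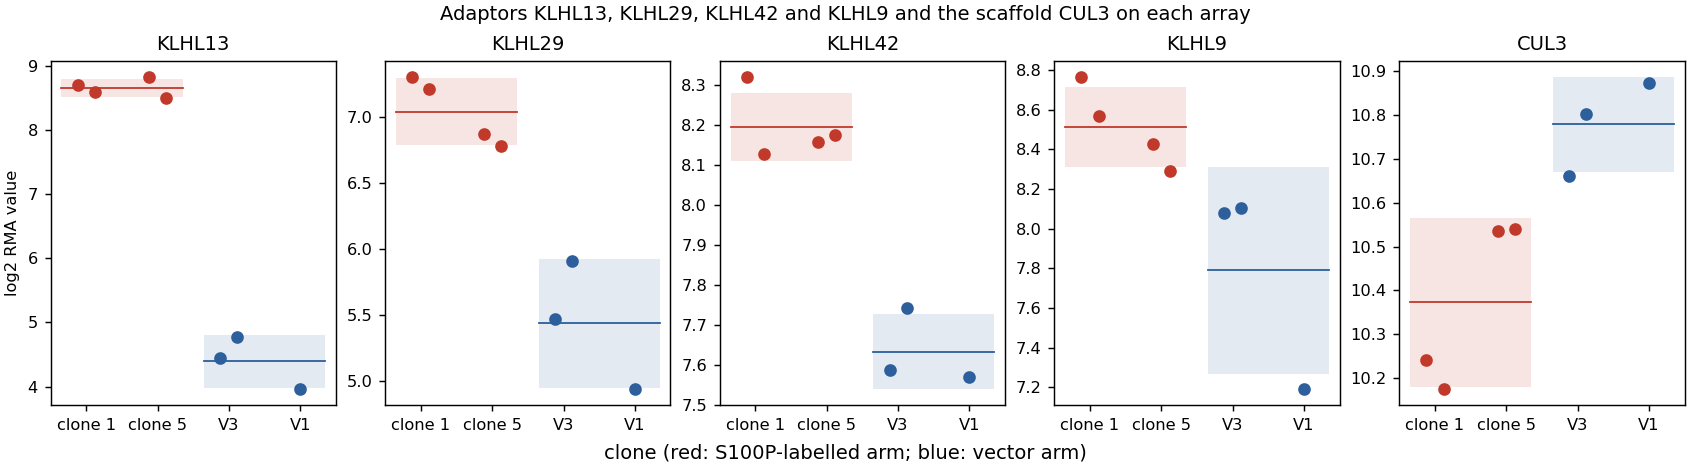
Log2 RMA values of KLHL13, KLHL29, KLHL42, KLHL9 and CUL3 on each of the 7 arrays, by clone (red: S100P-labelled arm, blue: vector arm); the line is the mean of an arm and the band 1 SD to each side, and each panel has its own axis, which does not start at 0. The arms of each gene are apart, KLHL13 by the widest gap, and KLHL9 on V1 (7.19) lies far below KLHL9 on V3.

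Among 5 members known for the cytoskeleton 1 rose, KLHL42. KLHL42, also named KLHDC5, directs CUL3 to the microtubule-severing protein katanin p60. Its values were 8.32 and 8.13 in clone 1, 8.16 and 8.18 in clone 5, 7.59 and 7.74 in V3, with 7.57 in V1. The S100P-labelled arrays all lay above the vector arrays, and clones of the same arm were close. The means were 8.20 ± 0.09 (SD, n = 4) against 7.63 ± 0.09 (SD, n = 3). KLHL42 rose 1.48-fold (log2 difference 0.57, SE 0.10, limma adjusted p = 0.0396). Its other probe sets gave 0.32 and 0.38, neither called. The call was lost without array 1b, 5a, 5b, V3a or V3b (adjusted p = 0.0586, 0.0747, 0.167, 0.145 and 0.0913), without clone V3 (0.0588), with each array centred on its median (0.0536) and with clone means (0.356), while the difference stayed between 0.54 and 0.63.

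KLHL24, an adaptor whose mutation in human skin lowers keratin 14, did not pass between arms. Its difference was 0.68 (SE 0.39, limma adjusted p = 0.573), 0.03 without V1 and 1.69 without V3, and its values are given with the vector clones. KLHL2, also called Mayven, an actin-binding adaptor, gave -0.21 (adjusted p = 0.49). KLHL1, a neuronal actin-binding adaptor, gave -0.18 (0.597), and KLHL17, the actin-binding adaptor actinfilin, gave 0.04 (0.927).

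Of 7 members that act in ion transport, secretion or signalling 0 passed in limma, and 2 had an unadjusted p under 0.05. At the probe sets of highest mean all 7 differences were above 0, from 0.10 for KLHL25, which acts on the translation repressor 4E-BP1, to 0.48 for KLHL20, which acts on the death-associated kinase DAPK1 and on PML. KLHL20 read 7.39 and 7.34 in clone 1, 6.74 and 6.91 in clone 5, 6.36 and 6.74 in V3, with 6.73 in V1 (SE 0.19, limma adjusted p = 0.369). Array 5a was only just above the highest vector array, and clone 1 stood above clone 5. KLHL8, reported to act on the synaptic protein rapsyn, read 7.87 and 8.00 in clone 1, 7.68 and 7.53 in clone 5, 7.17 and 7.10 in V3, with 7.78 in V1 (difference 0.38, SE 0.19, limma adjusted p = 0.504). V1 was here among the S100P-labelled values and V3 was low, so the arms overlapped, and without V3 the difference was -0.01. KLHL3, whose mutation raises blood pressure through WNK kinases, gave 0.26 (adjusted p = 0.463). KLHL12, which acts on the COPII coat protein SEC31, gave 0.37 (0.415), and KLHL15, which acts on a PP2A subunit, 0.18 (0.654). KLHL7, a retinal disease gene, gave 0.34 (0.576), but its other probe sets gave -0.11 and -0.17.

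The members of other tissues were mostly dim, and of these 6 members 0 passed in limma, with 1 (KLHL14) at an unadjusted p under 0.05. KLHL31, KLHL40 and KLHL41, known from striated muscle, gave -0.04, 0.18 and -0.28. KLHL6 of germinal-centre B cells gave -0.05 and KLHL10 of sperm cells -0.07. KLHL14, reported in B cells and to bind torsinA, was brighter and read 7.25 and 7.25 in clone 1, 7.51 and 7.39 in clone 5, 7.84 and 7.93 in V3, with 7.73 in V1. Every S100P-labelled array lay below every vector array, with clone 1 lowest, and the difference was -0.48 (SE 0.10, limma adjusted p = 0.0861). It passed without V1 (-0.54, adjusted p = 0.0384) and without clone 5 (-0.59, 0.0384), and also with no block for the clone (-0.49, 0.0445). Without V1 or clone 5 an arm holds 1 clone, so that clone and its arm cannot be told apart. The other KLHL14 probe sets gave 0.02 and -0.09.

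Of the 11 measured members with little known roles 1 rose, KLHL29. Its values were 7.31 and 7.21 in clone 1, 6.87 and 6.78 in clone 5, 5.47 and 5.91 in V3, with 4.94 in V1. The arms did not overlap, and clone 1 stood above clone 5 and V3 above V1. The difference of V1, which is 1 array, from V3 was -0.75. It did not pass, but did in each alternative setting that kept all arrays. The means were 7.04 ± 0.26 (SD, n = 4) against 5.44 ± 0.49 (SD, n = 3). KLHL29 rose 3.13-fold (log2 difference 1.65, SE 0.24, limma adjusted p = 0.0216). Its other 3 probe sets gave 0.57, 0.18 and 0.11, none called. The call was lost without array 1a, 1b, 5a, 5b or V3a (adjusted p = 0.0582, 0.0717, 0.0679, 0.0752 and 0.111) without clone 1 (0.0796) and with clone means (0.384), while the difference stayed between 1.30 and 1.73.

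KLHL35, also of little known role, read 5.89 and 6.05 in clone 1, 5.68 and 5.91 in clone 5, 6.15 and 6.64 in V3, with 6.09 in V1. Its S100P-labelled arrays all lay below the vector arrays, by a narrow margin between 1b and V1, and array V3b was high. The difference was -0.39 (SE 0.18, limma adjusted p = 0.445), and another KLHL35 probe set gave 0.05. The other 9 lay between -0.14 (KLHL34) and 0.28 (KLHL4). Among these KLHL5 had no single direction. Its probe set of highest mean gave 0.25 (SE 0.10, limma adjusted p = 0.376), while another KLHL5 probe set read 7.37 and 7.17 in clone 1, 6.79 and 6.73 in clone 5, 7.70 and 7.90 in V3, with 8.26 in V1. There every S100P-labelled array lay below every vector array, with a difference of -0.97 (limma adjusted p = 0.0656). The other 3 KLHL5 probe sets gave -0.32, 0.15 and 0.10, none called.

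CUL3, the scaffold to which the adaptors bind, did not pass. CUL3 read 10.24 and 10.17 in clone 1, 10.54 and 10.54 in clone 5, 10.66 and 10.80 in V3, with 10.87 in V1. Both S100P-labelled clones lay below the vector clones, and clone 1 lay below clone 5. The means were 10.37 ± 0.19 (SD, n = 4) against 10.78 ± 0.11 (SD, n = 3), a difference of -0.41 (SE 0.12, limma adjusted p = 0.203). The difference passed without clone 5 (-0.57, adjusted p = 0.0439) and was -0.23 without clone 1 (0.208). Either fit leaves 1 clone in the S100P-labelled arm, so that clone and the arm cannot be told apart. The other CUL3 probe sets gave -0.18 and -0.05.

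**Figure D3:**
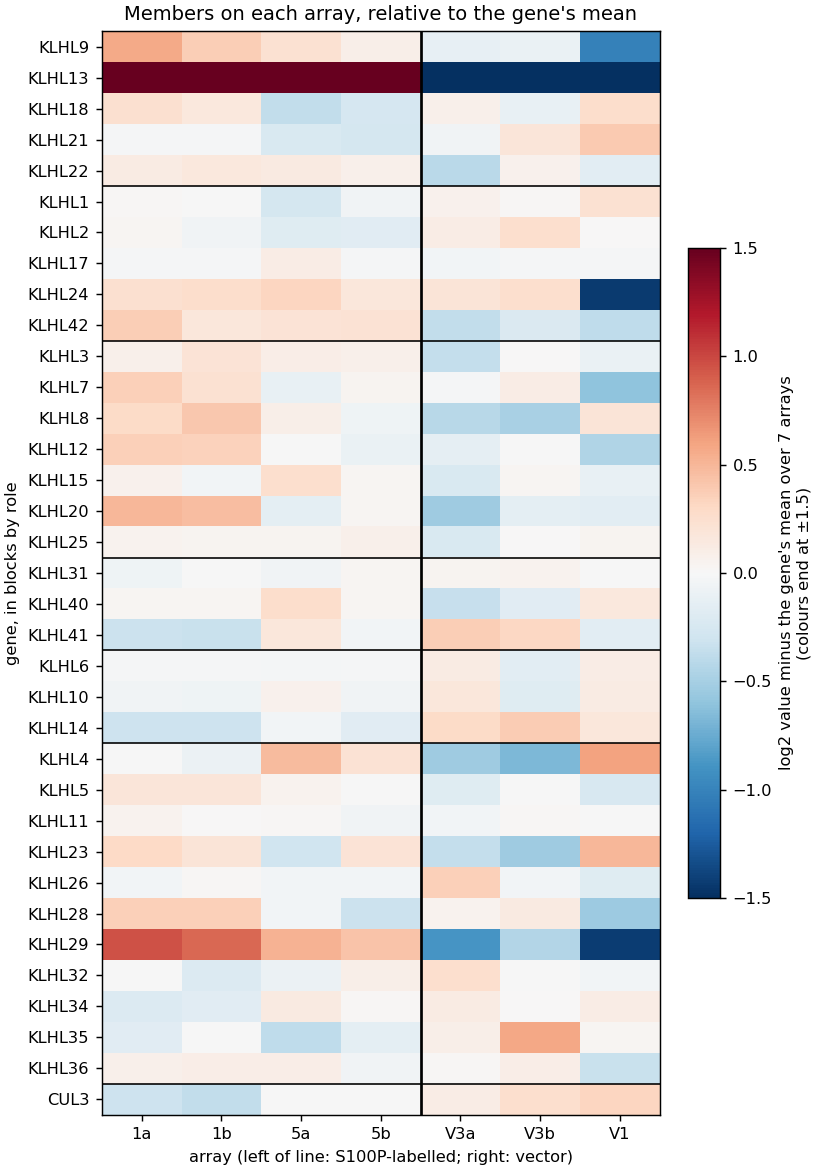
Each member's log2 value on each array minus its mean over the 7 arrays (values beyond the scale take its end colours), with genes in blocks by role and the S100P-labelled arrays left of the line. KLHL13 and KLHL29 change colour at the line, while KLHL24, KLHL9 and KLHL4 change mainly between the vector clones.

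Between the vector clones the members were compared in a fit of their own. Of the 35 members 7 passed in V1 against V3, 3 higher and 4 lower in V1, against 7.72% of all genes in either direction. V1 has 1 array and is assumed to vary as the other clones do, so this compares these clones and not conditions. Of the 7 epithelial markers 4 passed here as well. CDH1 (-2.43, limma adjusted p = 6.78e-04), KRT8 (-0.74, 0.0482) and KRT19 (-0.61, 0.0322) were lower in V1, and the syndecan SDC1 was higher (0.57, 0.0256). Their part in the members' results was not tested.

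Of the members KLHL24 was lowest in V1 relative to V3. It read 7.30 and 7.33 in clone 1, 7.39 and 7.24 in clone 5, 7.26 and 7.32 in V3, with 5.63 in V1. The other 6 arrays lay close together and V1 alone was low, by 3.16-fold (log2 difference -1.66, SE 0.12, limma adjusted p = 0.00132). Of its other 4 probe sets 3 fell too, with differences of -2.61, -2.11 and -0.98. The remaining KLHL24 probe set gave 0.26 and was not called, and it is of a type that can read unrelated transcripts. Of 27 measured genes within 1000 kb of KLHL24, 1 passed in V1 against V3, the lysosomal membrane gene LAMP3 (-2.35).

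KLHL7 showed opposite signs at different probe sets. The probe set of highest mean read 9.03 and 8.91 in clone 1, 8.57 and 8.72 in clone 5, 8.66 and 8.79 in V3, with 8.08 in V1. It fell in V1 (-0.65, SE 0.13, limma adjusted p = 0.0314). The second KLHL7 probe set read 8.64 and 8.66 in clone 1, 8.61 and 8.66 in clone 5, 8.37 and 8.61 in V3, with 9.15 in V1. It rose in V1 (0.66, adjusted p = 0.0323). The third rose as well (0.56, 0.0464). No direction can therefore be given for the KLHL7 gene, and which transcripts each probe set reads was not tested.

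**Figure D4:**
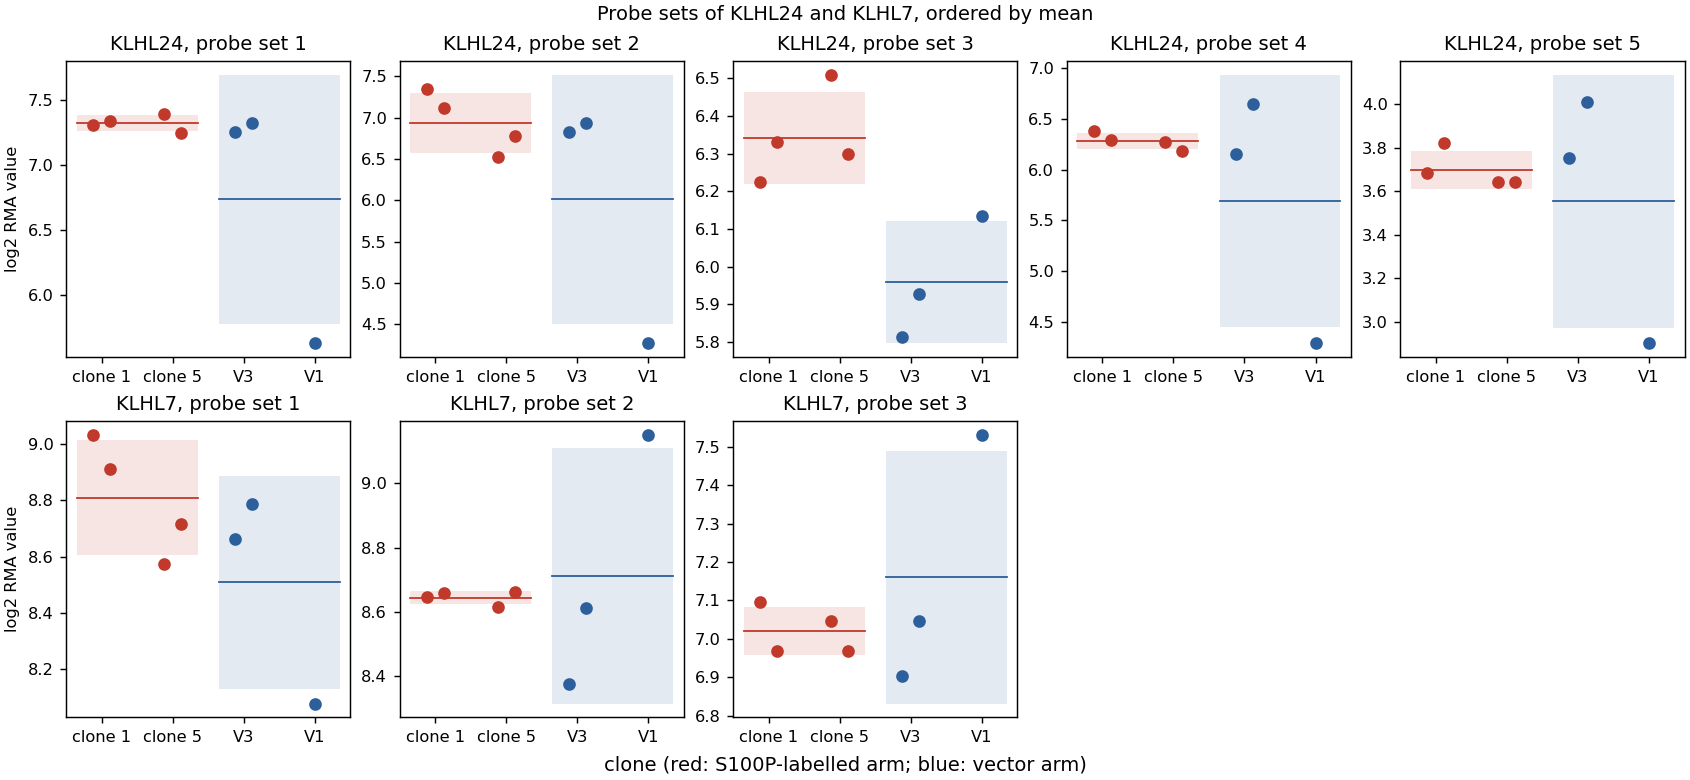
Log2 RMA values of all 5 KLHL24 and all 3 KLHL7 probe sets on the 7 arrays by clone (red: S100P-labelled, blue: vector; line: mean of an arm, band: 1 SD to each side; each panel has its own axis, which does not start at 0). V1 is lowest at 4 of 5 KLHL24 probe sets, and at KLHL7 it is lowest at the first and highest at the others.

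KLHL9 fell in V1 (-0.90, SE 0.13, limma adjusted p = 0.0118), and so did its second probe set (-0.67, adjusted p = 0.0209). KLHL28, of little known role, read 6.69 and 6.69 in clone 1, 6.28 and 6.01 in clone 5, 6.38 and 6.47 in V3, with 5.78 in V1. V1 was its lowest array, the difference was -0.64 (SE 0.14, limma adjusted p = 0.0433), and the KLHL28 probe set next in mean gave -0.66 (adjusted p = 0.0494).

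The 3 members that rose in V1 were KLHL4, KLHL23 and KLHL8. KLHL4, an X-linked gene of little known role, read 7.28 and 7.19 in clone 1, 7.75 and 7.50 in clone 5, 6.75 and 6.60 in V3, with 7.89 in V1. V1 was its highest array and V3 its lowest clone, with both S100P-labelled clones between them, and the difference was 1.21 (SE 0.14, limma adjusted p = 0.00653). The second KLHL4 probe set gave 0.64 (adjusted p = 0.0522). KLHL23, of little known role, read 6.86 and 6.76 in clone 1, 6.26 and 6.77 in clone 5, 6.21 and 6.04 in V3, with 7.06 in V1, so V1 was highest and V3 lowest. KLHL23 rose by 0.94 (SE 0.20, limma adjusted p = 0.0442). KLHL8 rose by 0.65 (SE 0.12, limma adjusted p = 0.0298), whereas another KLHL8 probe set gave -0.13 and was not called. Without 1a, 1b, V3a or V3b none of the 7 passed (12 to 17 members had an unadjusted limma p under 0.05), and without 5a or 5b KLHL4 and KLHL24 did.

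Between the S100P-labelled clones no member passed in limma, against 3.02% of all genes. At an unadjusted p under 0.05 there were 12 members, a threshold for which no share of all genes is given. The keratins KRT8 (1.15, limma adjusted p = 0.011), KRT18 (0.69, 0.0157) and KRT19 (1.32, 0.00215) were higher in clone 5, as was the monocyte marker CD14 (0.74, 0.0156). The members of largest difference were KLHL28 (-0.54, SE 0.11, limma adjusted p = 0.0636) and KLHL20 (-0.54, SE 0.14, limma adjusted p = 0.113), both lower in clone 5. For KLHL28 the arrays of clone 1 were equal to 2 decimals and both clone 5 arrays lay below them. The KLHL28 probe set next in mean gave -0.44 (adjusted p = 0.136), while its dimmest probe set gave 0.42. With probe sets of a mean under 5 left out, KLHL12, KLHL18, KLHL20 and KLHL28 passed, all lower in clone 5. These were 4 of 27 members, and 11% of all 24041 probe sets passed in that setting.

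Other parts of the same ligase system were read from lists of genes. Of 25 measured other BTB adaptors of CUL3, 1 rose and 0 fell. This was KBTBD11, a BTB-Kelch protein, with 5.75 and 5.57 in clone 1, 5.62 and 5.39 in clone 5, 4.73 and 4.17 in V3, with 4.41 in V1. The arms did not overlap, and the difference was 1.15 (SE 0.18, limma adjusted p = 0.0252). The call was lost without 5a, 5b or V3b (adjusted p = 0.072, 0.102 and 0.072). Of 23 genes of the ligase machinery and the NEDD8 cycle 0 passed in limma, and 3 had an unadjusted p under 0.05. The 2 of largest difference were DCUN1D5, which promotes the attachment of NEDD8 to cullins (-0.44, SE 0.10, limma adjusted p = 0.0999), and SENP8, a NEDD8 protease (0.39, adjusted p = 0.496). Of 7 other cullins, scaffolds of related ligases, 0 passed in limma and 0 had an unadjusted p under 0.05, with CUL5 at -0.35 and CUL4B at 0.27.

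Of 20 reported substrates of KLHL adaptors, 1 rose and 0 fell. This was WNK1, a kinase of salt transport that KLHL3 and KLHL2 bring to CUL3. WNK1 read 10.96 and 11.11 in clone 1, 10.98 and 11.01 in clone 5, 9.30 and 9.43 in V3, with 9.66 in V1. Its arms were far apart, and the 4 S100P-labelled arrays lay close together. WNK1 rose 2.91-fold (log2 difference 1.54, SE 0.11, limma adjusted p = 8.92e-04), the WNK1 probe set next in mean rose by 1.17 (adjusted p = 0.0146), and 5 others were not called.

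The genes around the 3 members that rose differed in how far they went along with them. Of 6 measured genes within 1000 kb of KLHL13, 0 rose, and their differences lay between -1.13 and 0.39. The lowest was LONRF3, a RING finger gene, which read 5.93 and 6.08 in clone 1, 5.99 and 6.11 in clone 5, 7.08 and 7.29 in V3, with 7.11 in V1. LONRF3 fell (difference -1.13, SE 0.10, limma adjusted p = 0.00265). Of 12 around KLHL29 none passed, with a median of 0.10 and a range from -0.24 to 1.01. At the highest, FAM228B, every S100P-labelled array lay above every vector array. Of 12 around KLHL42 none passed either, but all 12 lay above 0, from 0.06 to 0.75.

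KLHL42 thus lay among genes whose differences were mostly above 0, an arrangement noticed after the values were seen and described here without a test. Of all 12121 genes above the array median on all arrays, 167 rose and 81 fell. Of 33 such genes within 5 Mb of KLHL42, 4 rose and 0 fell, 29 were above 0, and their median was 0.47. KLHL42 itself lay only 0.10 above that median, whereas KLHL13 lay 4.23 and KLHL29 1.59 above the medians of their own surroundings. On chromosome 12, of 149 such genes that start before KLHL42 or up to 10 Mb after it, 124 (83.2%) were above 0, with a median of 0.35. WNK1 is one of them. Their median level, relative to each gene's mean, was 0.16 in clone 1 and 0.13 in clone 5, and -0.18 in V3 and -0.13 in V1. Of the other 504 on chromosome 12, 53.0% were above 0, with a median of 0.02. Chromosome 12 as a whole had a median of 0.06, and the other 22 whole chromosomes had medians between -0.07 (chromosome 11) and 0.08 (X). Stretches of like length on those chromosomes were not compared. The part of this surrounding shift in the KLHL42 difference was not tested. The surroundings of the other 34 members had medians between -0.14 (KLHL35) and 0.56 (KLHL4, with 2 genes). Next highest were those of CUL3 (0.32, with 15 genes) and KLHL15 (0.31, with 18 genes).

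**Figure D5:**
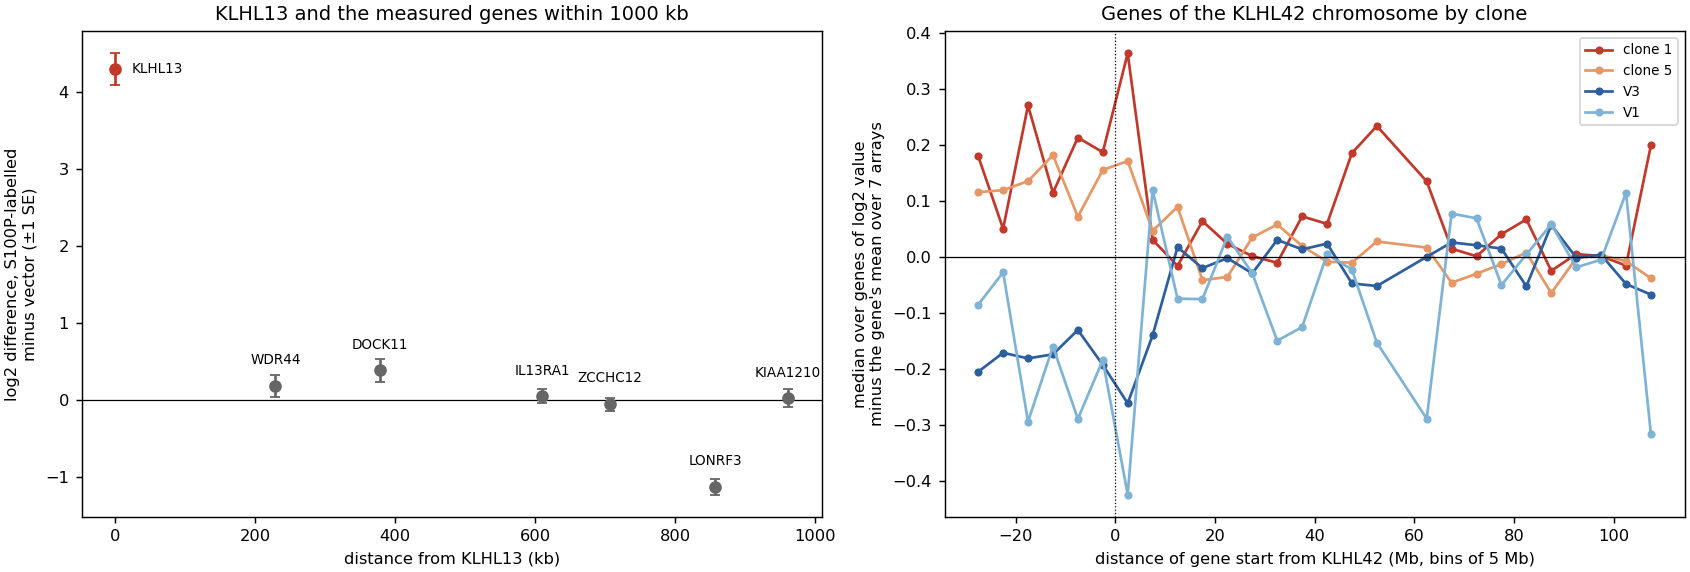
Left, log2 difference between arms (bar: 1 SE to each side) of KLHL13 and the 6 measured genes within 1000 kb, against distance from KLHL13; right, median log2 value of chromosome 12 genes relative to each gene's mean, per clone, in bins of 5 Mb from KLHL42. KLHL13 stands alone at 4.30, while on the right both S100P-labelled clones run above both vector clones in every bin before KLHL42 and in the first bin after it.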

How the data were processed

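The deposited values are log2 expression values made by the authors with RMA, per the submitters' processing notes. No version of RMA is stated, nor whether all arrays went through it at once, and the log2 scale was taken from the range of the values. The table held 54675 probe sets, of which 62 controls were left out. Of the rest 41091 had 1 gene symbol, 1801 several and 11721 none, in the platform annotation, and 41037 of the first kind matched a current gene by Entrez number.

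Arms were compared in limma 3.58.1 with statmod 1.5.0 (R 4.3.3), with the clone as a random block (consensus correlation 0.287). Clones were compared in a second limma fit with 4 clone effects and 3 residual degrees of freedom. All p-values are two-sided and were adjusted by Benjamini-Hochberg over 54613 probe sets, with a threshold of 0.05. Counts of genes at an unadjusted p under 0.05 are given without the share of all genes at that threshold. Fitted differences take that correlation into account and are not exactly the differences of arm means. The number of arrays limits the precision. The labels do not say whether a and b arrays are separate cultures, and p-values therefore reflect no more than the spread among the arrays and clones at hand.

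Members and lists were chosen with earlier results of these data known. Values on every array are given for members that passed between arms, for KLHL9, KLHL13 and CUL3, for the next 3 members in each direction, and for up to 4 in each direction that passed between clones. Of other lists, members that passed are named, or otherwise the 2 of largest difference. KLHL5, the markers called between clones, LONRF3, FAM228B, LAMP3 and the chromosome 12 genes were chosen after their values were seen. RefSeq (GRCh38.p14) gave neighbours and promoters. Tested on simulated data over 54613 probe sets, the comparison of arms recovered 81 of 100 changes of log2 1 and 99 of 100 of log2 2. For clone 5 against clone 1 these were 56 and 95, and for V1 against V3 50 and 93. False calls were 11 for arms, 4 for clone 5 against clone 1 and 7 for V1 against V3. For arms the simulated clones varied less than the arrays within a clone. For the clone contrasts only the changed probe sets differed between clones. Real clones can differ more, as at KLHL24, so recovery in these data can be lower. Alternatives were no block, clone means, quantile normalization, median centring, a filter on dim probe sets (mean under 5), trended robust eBayes, other probe sets, leaving out arrays or clones, and, added after seeing the data, the array letter as a block. Figures used matplotlib 3.10.9.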

Additional observations from a re-analysis of the deposited data

Results flagged for a closer look

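In the S100P-labelled arm 8 of the 35 members had 1 array apart from the other 3, by Dixon's 95% limit for the gap to the nearest array as a share of the arm's whole range. Chance flags about 1 in 20 such groups. KLHL23 read 6.26 on 5a against 6.76 to 6.86 (share 0.832), and KLHL36 read 8.88 on 5b against 9.01 to 9.03 (0.850). KLHL3 read 5.29 on 1b against 5.16 to 5.18 (0.841), and KLHL10 read 3.64 on 5a against 3.51 to 3.52 (0.945). At the other four flagged members the remaining 3 arrays held equal values, which gives a share of 1 for any gap. These were KLHL6 (3.44 on 5a against 3.45), KLHL17 (5.75 on 5a against 5.62), KLHL26 (6.25 on 1b against 6.19) and KLHL40 (3.47 on 5a against 3.23). Among 16 genes of the other lists that were examined in the same way, 0 exceeded the limit. No call between arms rests on these 8 members, and among calls between clones KLHL23 is the only one of them, in V1 against V3.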

How the results depend on the processing

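KLHL13 kept its call in every alternative but the averaging of each clone's arrays, where it was 4.37 (limma adjusted p = 0.098) and 0 members passed (7 with an unadjusted p under 0.05). KLHL29, KLHL42, KBTBD11 and WNK1 lost theirs there too, and KLHL42 also with the filter on dim probe sets, trended robust eBayes and the mean of its probe sets. Between arms 3 members passed, 1 to 4 with 1 array left out, and 5 without clone 5. With no clone block 4 passed, KLHL14 (-0.49) beside the same 3. CUL3 passed without clone 5 at -0.57, and KLHL9 was at 1.32 without clone V3. Leaving out a clone leaves 1 clone in its arm, so clone and arm cannot be told apart in such fits. Between clones 5 and 1, 2 members passed with median centring, 4 with the filter on dim probe sets and 2 with trended robust eBayes, against 0. Of all probe sets 3.32%, 11% and 3.14% passed in these settings, in that order, against 2.19%. In V1 against V3, 7 passed, 8 or 9 in the other settings, and 0 to 2 with 1 array left out. In those other settings 6.49% (median centring) to 21% (dim filter) of all probe sets passed. Signs turned without clone V3 for KLHL8 (-0.0124) and PTPRC (-0.14). Among the genes for which other probe sets were run as alternatives, they turned between arms for KLHL14 (0.0228), KLHL35 (0.0513), DCUN1D5 (0.0917), CUL5 (0.43) and PTPRC (-0.0633), and between clones 5 and 1 for KLHL28 (0.42). In V1 against V3 they turned for KLHL8 (-0.13), KLHL24 (0.26) and KLHL7 (0.66 and 0.56).

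Over all probe sets 611 passed between arms, 1103 without the block, 8 with clone means, 159 to 1708 with 1 array left out, and 1355 and 1675 without clones 5 and V3. Between clones 5 and 1 the count was 1195, 1813 with median centring and 2653 with the dim filter. In V1 against V3 it was 3195, and 5053 with that filter. Leaving out an array of clone 1, 5 or V3 left 2 residual degrees of freedom and 0 calls in limma between clones 5 and 1 (7 to 14 members at an unadjusted p under 0.05). In V1 against V3 it left 0 calls for clones 1 and V3 (12 to 17 members) and 909 for clone 5. Leaving out clone V1 is the same as leaving out its 1 array. The labels give arrays of clones 1, 5 and V3 the letters a and b without saying what these mark, and V1 has none. The differences of a minus b correlated between clones, over probe sets, at 0.0497 (1 and 5), -0.0821 (1 and V3) and 0.0630 (5 and V3). What the letters mark cannot be read from these values, since a and b need not mean the same in each clone. With the letter as a replicate block and V1 left out, an alternative chosen after seeing the data, 2 members passed, KLHL13 (4.04) and KLHL29 (1.35), with KLHL42 at an adjusted p of 0.0792 in limma, and 917 probe sets passed. The number of arrays limits all of these results, and dim probe sets have no detection call here.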
